A study of Mus musculus with 2 samples.

Results

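Transcripts of 10 kinetochore and spindle checkpoint genes were followed in the islets of newborn PERK wild-type and PERK knockout mice: Ndc80, Nuf2, Spc25, Mis12, Dsn1, Pmf1, Mad2l1, Incenp, Cenpk and Cenpq. They are 10 of the 12393 genes with a probe set of their own on the Affymetrix mouse 430A array, and they were found by gene symbol in the platform's annotation. The genes were chosen by name with their knockout over wild-type ratios on these 2 arrays already known, so those ratios are a description and carry no test. PERK, the product of Eif2ak3, is a stress kinase of the endoplasmic reticulum that slows translation. One RNA sample of each genotype was hybridised, taken 2 days after birth from islets freed with collagenase P. Wild-type pups were of mixed strain and sex per their label, while the knockout label is silent on both. The sources used here do not say how the allele was made, in which cells PERK was lost, or how many pups were pooled.

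The kinetochore is the protein assembly that fastens a chromosome to the spindle when a cell divides. An inner layer, the constitutive centromere network, sits on chromatin marked by the histone variant CENP-A. The Mis12 complex rests on that layer and carries the Ndc80 complex, whose far end grips the microtubules. The spindle checkpoint watches for chromosomes without this grip and holds back anaphase until all are attached. Many genes of this machinery are transcribed mainly in dividing cells, and beta cells of newborn rodents still divide.

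The values are linear signal intensities in arbitrary units, and each ratio below is knockout over wild type on the log2 scale. A floor was set at 39.8, below which 40% of the signals of the joined arrays lay, and a gene above it on both arrays is called measured. This held for 8133 genes, whose median log2 ratio was 0.03. With 1 array per genotype no spread between animals exists, and no p-value can be given. The only error available is the disagreement between probe sets of the same gene, an SD of 0.26 on the log2 scale over 2597 genes. It was 0.28 where the dimmer probe set had a mean signal of 40.7 to 71.6, 0.29 from there to 118, and 0.19 where it was above 253. For the difference between the ratios of a pair of genes the same error, pooled over all signals, is 0.36. Multiples of it given below are therefore somewhat too large for pairs of dim genes, and they are not a test. This error covers noise of single probe sets on the same arrays, not effects shared by a whole array, nor litters or RNA preparations. The SD of the ratios of all measured genes was 0.33. On the measured probe set of the targeted gene, Eif2ak3, the wild type read 117.7 and the knockout 58.7, or 2.01-fold lower. The remaining probe sets of the gene were under the floor, and the part of the gene removed is not given, so this is a limited check of the labels.

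All 10 genes were measured on their brightest probe set, and 7 were at least 2-fold lower in the knockout library. Over all measured genes, 53 were that much lower, or 0.652% (0.516% were at least 2-fold higher). The 7 genes were Spc25, Nuf2, Mad2l1, Incenp, Cenpk, Mis12 and Ndc80. Dsn1 was lower by less, and Pmf1 and Cenpq were not lower. The median log2 ratio of the 10 genes was -1.10, or 2.14-fold lower. Counted from the lowest ratio of all measured genes, Spc25 ranked 4, Nuf2 17, Mad2l1 22, Incenp 24, Cenpk 37, Mis12 39 and Ndc80 45. In the same order Dsn1 ranked 739, Cenpq 4683 and Pmf1 6931. When measured genes were split by mean signal into 4 groups of equal size, 0.492% of the dimmest, 0.787% and 0.738% of the next groups and 0.59% of the brightest were at least 2-fold lower.

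**Figure D1:**
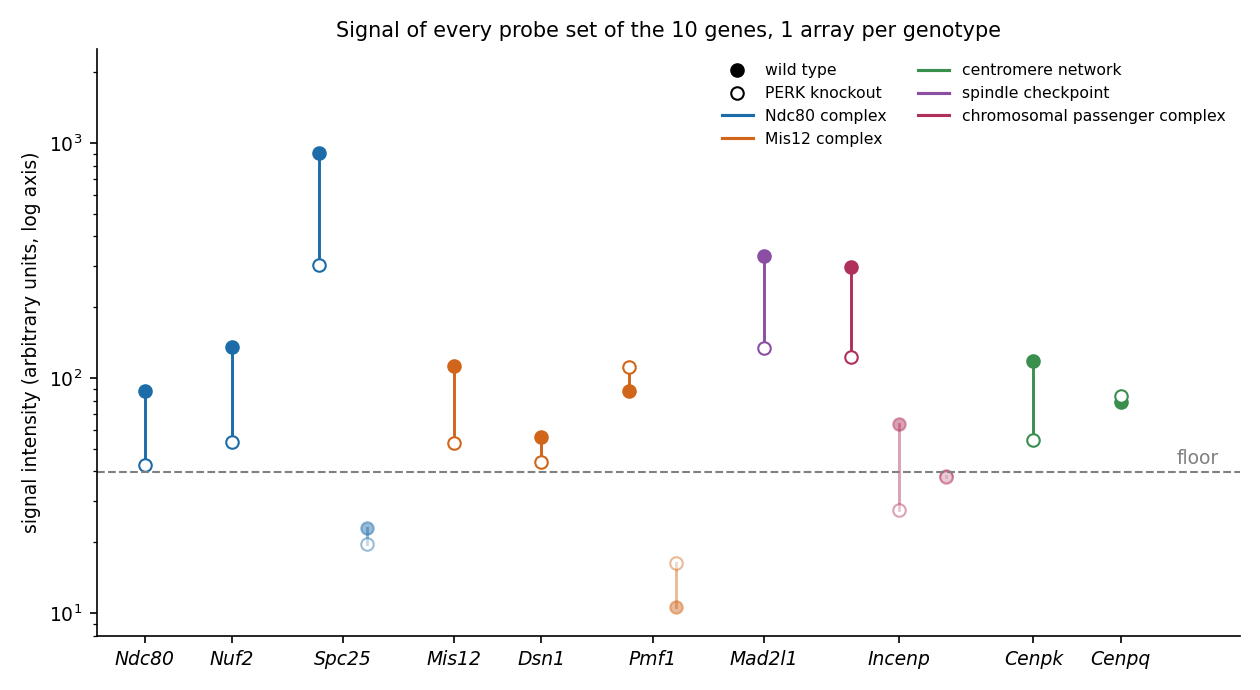
Signal intensity (log axis, arbitrary units) of all probe sets of the 10 genes on the wild-type array (filled) and the knockout array (open); faint pairs are the dimmer probe sets of a gene, and the dashed line is the floor of 39.8. Spc25 reads 906.2 and 303.2, while Cenpq reads 79.2 and 83.8 and Pmf1 87.6 and 111.1.

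The Ndc80 complex was lower in all 3 of its listed subunits that have a probe set of their own. Spc25, which joins the complex to the inner kinetochore, read 906.2 in wild type and 303.2 in the knockout, a log2 ratio of -1.58 (2.99-fold lower). Its knockout signal was still 7.62 times the floor, so this ratio lies clear of the dim range. Nuf2, the partner of Ndc80 at the microtubule end, read 135.0 and 53.4, a log2 ratio of -1.34 (2.53-fold lower). Ndc80, the largest subunit and itself a microtubule binder, read 88.1 and 42.7, a log2 ratio of -1.04 (2.06-fold lower). The knockout signal of Ndc80 was 1.07 times the floor, so its ratio depends on a value near the limit of measurement. The ratios of the 3 subunits lay within 0.53 of each other, or 1.47 times the error of a difference. A second probe set of Spc25 (23.0 and 19.7) was under the floor on both arrays and gives no ratio. Spc24, the remaining subunit, is not analysed here.

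The promoter sequences of these subunits are shown because the genes are lower together, and because promoters of cell cycle genes often carry short motifs. The motif letters searched, on both strands, were the cell cycle homology region CHR (TTTGAA or TTCGAA), the CCAAT box (CCAAT) and an E2F-like run (TTGGCGC or TTCCCGC or TTGCCGC or TTCGCGC). The window ran from 250 bases before to 50 after each annotated start in the RefSeq promoter table of GRCm38.p6. Capitals mark the motif letters, and all runs are written 5′ to 3′ on the strand of the gene. The upstream runs end at the base before the start of Spc25 (chr2:69206214-69206333, minus strand), Ndc80 (chr17:71526858-71526977, minus strand) and Nuf2 (chr1:169531465-169531584, minus strand). The short runs are the CHR matches downstream of the starts of Spc25 (chr2:69206178-69206203) and Ndc80 (chr17:71526817-71526842).
Spc25 upstream: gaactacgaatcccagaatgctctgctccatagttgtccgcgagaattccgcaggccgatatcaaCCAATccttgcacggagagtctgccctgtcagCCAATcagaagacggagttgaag
Spc25 CHR match: caggcggtggagagTTTGAAattgaa
Ndc80 upstream: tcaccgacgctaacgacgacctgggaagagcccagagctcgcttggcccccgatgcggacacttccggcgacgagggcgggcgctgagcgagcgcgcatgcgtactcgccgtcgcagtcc
Ndc80 CHR match: cggaaactttaaaaTTCAAAccgcct
Nuf2 upstream: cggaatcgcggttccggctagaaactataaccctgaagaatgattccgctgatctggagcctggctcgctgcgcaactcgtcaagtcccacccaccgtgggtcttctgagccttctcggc
In Spc25, CCAAT boxes began at -55 and -23 and the CHR letters at 25 bases after the start. In Ndc80 the CHR letters began 30 bases after the start, on the opposite strand, and no CCAAT box was in the window. In Nuf2 none of the letters was in the window, although its ratio lay between those of Spc25 and Ndc80.

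The Mis12 complex was uneven. Mis12, which with Pmf1 binds the inner centromere, read 112.2 in wild type and 52.7 in the knockout, a log2 ratio of -1.09 (2.13-fold lower). Dsn1, the subunit through which Aurora B regulates binding to the centromere, read 56.2 and 43.8, a log2 ratio of -0.36 (1.28-fold lower). Pmf1, the other partner, read 87.6 and 111.1, a log2 ratio of 0.34 (1.27-fold higher). Thus Mis12 alone was 2-fold lower, Dsn1 was only slightly lower, and Pmf1 was on the other side of equality. Mis12 and Pmf1 differed by 1.43 on the log2 scale, 3.95 times the error of a difference, and Mis12 and Dsn1 by 0.73, or 2.01 times. Both signals of Dsn1 were close to the floor, the knockout one at 1.10 times its value. The Pmf1 ratio comes from a probe set of the _x_at type, whose probes can match other transcripts. Its second probe set (10.6 and 16.3) was under the floor. Nsl1, the remaining subunit, is not analysed here.

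The upstream sequence of Mis12 is shown for its 4 CCAAT boxes, beginning at -221, -140, -89 and -55 (chr11:71019381-71019610, plus strand). That of Cenpq, a gene that was not lower, is shown beside it for its 3 boxes, beginning at -116, -73 and -68 (chr17:40934575-40934694, minus strand).
Mis12 upstream: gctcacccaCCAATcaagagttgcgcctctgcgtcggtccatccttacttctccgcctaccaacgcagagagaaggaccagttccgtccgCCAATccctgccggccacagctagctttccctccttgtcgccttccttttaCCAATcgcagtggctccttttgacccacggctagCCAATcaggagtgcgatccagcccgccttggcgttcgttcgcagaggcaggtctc
Cenpq upstream: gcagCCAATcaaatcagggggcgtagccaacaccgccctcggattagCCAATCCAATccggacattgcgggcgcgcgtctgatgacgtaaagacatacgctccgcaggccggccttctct
The promoter table had an entry for 9 of the 10 genes, all but Incenp. A CCAAT box was in a window of 3 of the 6 entries of genes at least 2-fold lower (Spc25, Mis12 and Cenpk) and of 2 of the 3 others (Pmf1 and Cenpq). CHR letters were found in 2 of the 6 (Spc25 and Ndc80) and in 1 of the 3 others (Pmf1). E2F-like letters were found in 1 of the 6 (Cenpk) and in 1 of the 3 others (Dsn1). Mad2l1, like Nuf2, had none. Among all 32851 promoter windows, 37.4% held CCAAT, 19.2% a CHR match and 9.57% an E2F-like run. Cenpk has 3 annotated starts, which gives it more sequence to match. The split holds few genes, and Dsn1 and Cenpq were too dim to be counted as 2-fold lower. It therefore cannot show whether the letters go with the ratios, and a match is not evidence of binding.

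**Figure D2:**
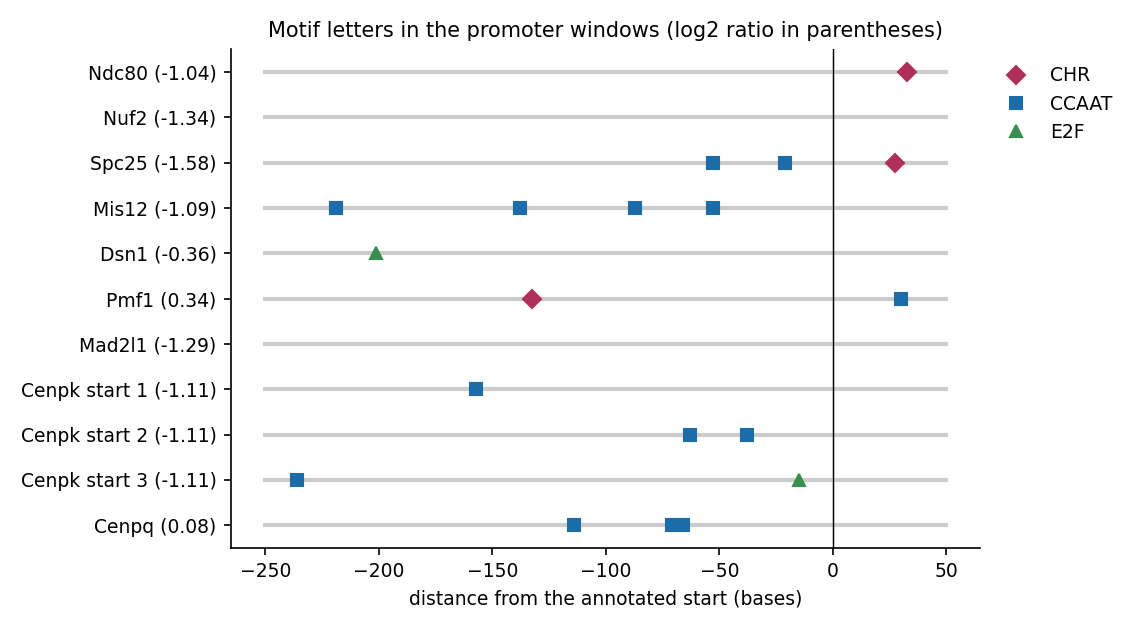
Position of the CHR, CCAAT and E2F-like letters relative to the annotated start (bases) in each promoter window of 9 genes, with the log2 ratio of each gene in parentheses. Mis12 (-1.09) and Cenpq (0.08) both hold several CCAAT boxes, and Nuf2 (-1.34) and Mad2l1 (-1.29) hold none of the letters.

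In the centromere network Cenpk was lower and Cenpq was level. Cenpk, which works in a group with CENP-H and CENP-I, read 117.9 in wild type and 54.6 in the knockout, a log2 ratio of -1.11 (2.16-fold lower). Cenpq, of the CENP-O group, read 79.2 and 83.8, a log2 ratio of 0.08. That ratio was -0.01 after loess normalisation, so it has no direction. The genes differed by 1.19, or 3.28 times the error of a difference. The wider network had a median nearer 0 than that of the Ndc80 subunits. Of its 16 listed genes, 9 were measured, 7 of them with a ratio below 0 (45.1% of all measured genes were), and the median was -0.23. Without Cenpk and Cenpq, 6 of the 7 measured ones were below 0 and none was 2-fold lower. Besides Cenpk, network genes at least 1.5-fold lower were Itgb3bp (CENP-R, 81.3 and 49.1, log2 ratio -0.73) and Cenpm (110.0 and 73.1, -0.59). Over all measured genes, 2.95% were at least 1.5-fold lower and 4.19% at least 1.5-fold higher. The brightest of the list were Cenpx (191.0 and 187.8, a log2 ratio of -0.02) and Cenpn (173.5 and 128.1, -0.44, and -0.19 on its second probe set). Cenph, the partner of Cenpk, was under the floor on both arrays (30.2 and 23.3).

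Mad2l1 and Incenp, which belong to neither scaffold, were lower by nearly equal ratios. Mad2l1 encodes the checkpoint protein MAD2, which captures CDC20 to stop anaphase. Its signal was 329.0 in wild type and 134.5 in the knockout, a log2 ratio of -1.29 (2.45-fold lower), from a single probe set well above the floor. Incenp is the scaffold of the chromosomal passenger complex, which holds Aurora B at the centromere. Its brightest probe set, of the _x_at type, read 296.8 and 122.3, a log2 ratio of -1.28 (2.43-fold lower). A second, 63.6 in wild type and 27.3 in the knockout, was at least 1.60-fold lower, since the knockout value was under the floor. The dimmest (38.4 and 38.0) was under the floor on both arrays. The lower ratio of Incenp therefore rests on 2 of 3 probe sets, of which 1 gives a bound.

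Set side by side, the median log2 ratio was -1.34 over the 3 Ndc80 subunits (range -1.58 to -1.04). It was -0.36 over the 3 Mis12 subunits (-1.09 to 0.34) and -0.51 over the pair of centromere genes (-1.11 to 0.08). Every Ndc80 subunit was at least 2-fold lower, against 1 of 3 in the Mis12 complex and 1 of 2 in the centromere pair. This count was limited by signal: from its wild-type value down to the floor, Dsn1 could have been at most 1.41-fold lower and Cenpq 1.99-fold, so neither could have been counted. For Pmf1 the limit was 2.20-fold and for Ndc80 2.21-fold. The knockout signals of Pmf1 and Cenpq were 2.79 and 2.11 times the floor, and that of Dsn1 1.10 times. The ranges overlap: Mis12 and Cenpk had ratios slightly lower than Ndc80 itself. Differences between subcomplexes therefore come from Dsn1, Pmf1 and Cenpq, and no test between groups of this size was made. All 3 of these have a signal of at most 111.1 on either array. Ndc80, Nuf2, Mis12 and Cenpk, at least 2-fold lower, had wild-type signals of 88.1 to 135.0.

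**Figure D3:**
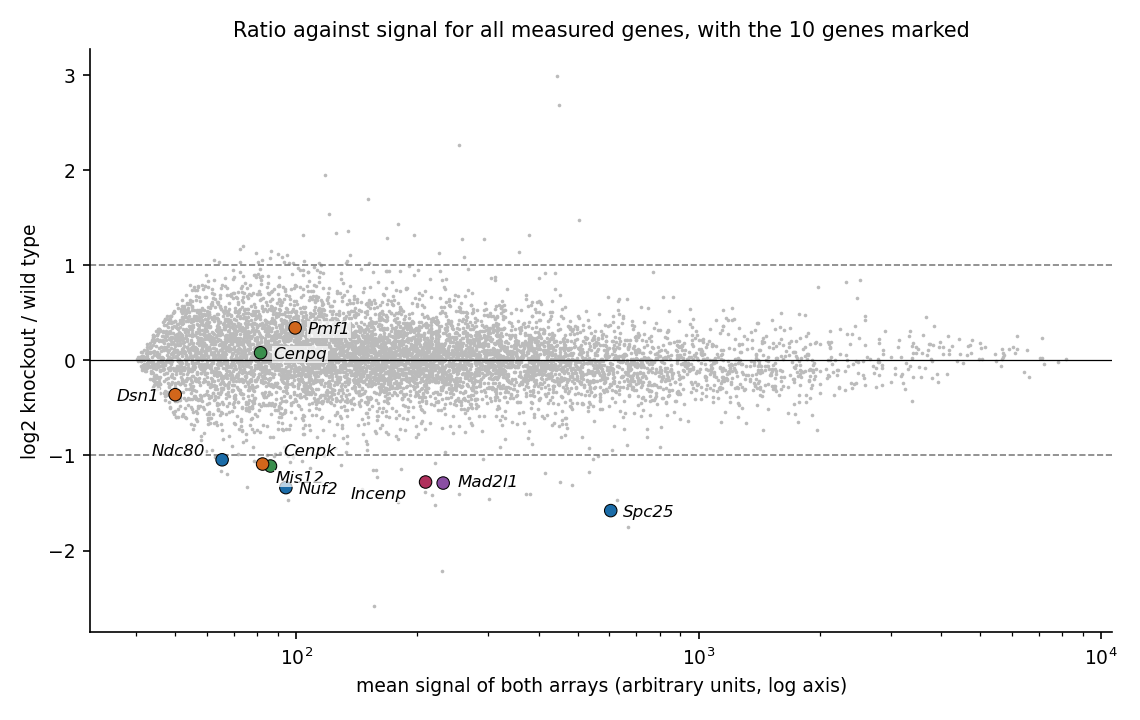
Log2 ratio of knockout over wild type against the mean signal of both arrays (log axis) for the 8133 measured genes (grey), with the 10 genes coloured by subcomplex; dashed lines mark 2-fold. Spc25, Mad2l1 and Incenp lie below the line at bright or intermediate signal, Ndc80, Mis12, Cenpk and Nuf2 below it at dim signal, and Dsn1, Cenpq and Pmf1 within the grey cloud.

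The other genes of the pathway, from lists of 64 kinetochore, checkpoint and passenger genes, held both low and level transcripts. Without the 10 genes above, 54 were listed, 38 had a probe set of their own and 26 were measured. Of these 26, 19 had a ratio below 0 (45.1% of all measured genes did), 4 were at least 2-fold lower and none was 2-fold or 1.5-fold higher. Their median was -0.28. A further 6 had only the knockout signal at the floor, and 6 were at the floor on both arrays. Over all 12393 genes, 693 were above the floor on 1 array only, 269 of them in the wild type, and 3567 were at the floor on both. With the 6 bounds included, the median of these other pathway genes was -0.36.

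Among checkpoint genes, Cdc20 and Trip13 were at least 2-fold lower, and Bub3 and Mad2l1bp were not. Cdc20, the activator of the anaphase-promoting complex that MAD2 inhibits, read 394.9 and 163.8 (log2 ratio -1.27), and a second probe set gave -1.31. Trip13, the ATPase that remodels MAD2, had a signal of 89.8 in wild type and one barely above the floor in the knockout (-1.17). The kinase gene Bub1b was at least 1.60-fold lower (63.7 in wild type, 9.2 in the knockout), Bub1 at least 1.43-fold (56.8 and 20.6) and Ttk at least 1.29-fold (51.5 and 33.8). In these 3 the wild-type signal was so low that a larger fold could not have been measured. Bub3, a partner of the BUB kinases, was near equality (765.4 and 664.3, log2 ratio -0.20, and 0.16 on its second probe set). Mad2l1bp, which helps to dissolve MAD2 complexes, read 79.6 and 90.5 (0.19), and Mad1l1 was under the floor on both arrays.

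The passenger complex was lower in all 3 measured subunits. Beside Incenp, Birc5 (survivin) read 316.5 and 118.6, a log2 ratio of -1.42 (2.67-fold lower). The kinase gene Aurkb read 84.3 and 47.4 on a probe set of the _x_at type, a log2 ratio of -0.83 (1.78-fold lower). Its other probe set (27.5 and 17.6) was under the floor on both arrays. Of the related kinases, Aurka read 176.0 and 90.4 (-0.96) and Plk1 125.5 and 83.5 (-0.59). The centromere guardian Sgo1 was at least 1.58-fold lower (63.0 and 31.5).

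Of the genes that mark or build centromeric chromatin, Cenpa, the histone variant itself, read 222.9 and 95.2, a log2 ratio of -1.23 (2.34-fold lower). Mis18a, needed to load it, was at -0.33 and at -0.31 on its second probe set. Cenpb, which binds satellite DNA, was at 0.45 (75.0 and 102.8). At the outer kinetochore Cenpf read 163.6 and 86.3 (-0.92), though its second probe set gave -0.16. Kif2c, a kinesin that shortens microtubules, was at -0.37, with another probe set at least 1.71-fold lower and a dimmer one at -0.02. The microtubule proteins Clasp1 and Clip1 were each at 0.14 and Ska2 at 0.03 (0.05 on its second probe set). Ska1 was at least 1.06-fold lower (42.2 and 15.4).

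Zwint, which links KNL1 to the RZZ complex, was bright and near equality. Its brightest probe set read 986.3 and 910.0 (-0.12), and the other 3 measured ones gave 0.14, 0.03 and 0.06. Of the RZZ complex and its adaptor, Zw10 was at 0.11 and Spdl1 at -0.11, and Zwilch was at least 1.27-fold lower (50.6 and 27.3).

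**Figure D4:**
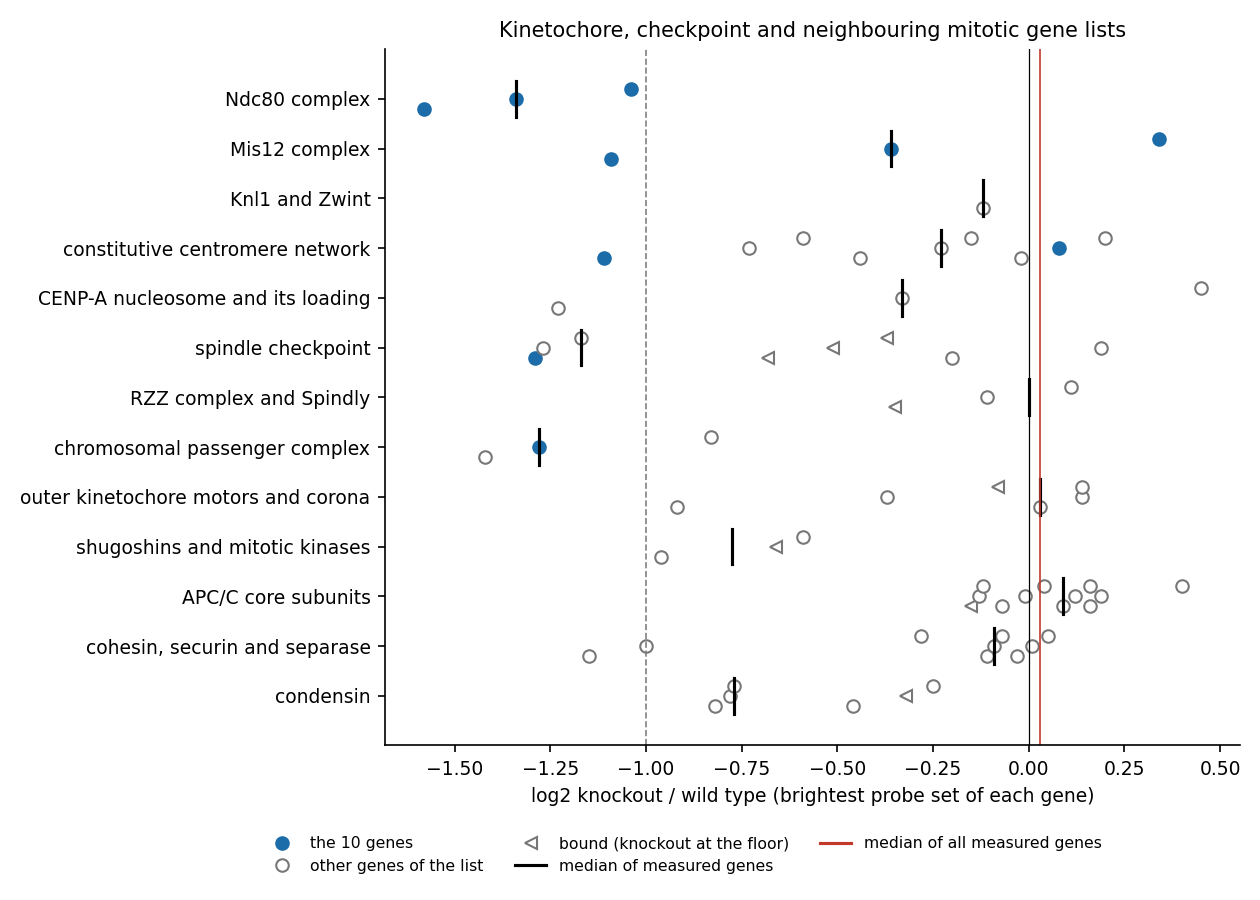
Log2 ratio of knockout over wild type for each gene of the kinetochore and neighbouring mitotic lists that was above the floor on at least 1 array (one point per gene; filled, the 10 genes; triangles, bounds, with a true value at or to the left). Black bars are list medians, such as -1.34 for the Ndc80 complex, -0.23 for the centromere network and 0.09 for the anaphase-promoting complex; the red line is the median of all measured genes, 0.03.

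Neighbouring mitotic complexes ranged from level to lower. The anaphase-promoting complex, the ubiquitin ligase restrained by the checkpoint, had a median of 0.09 over 11 measured subunits, with none 1.5-fold apart on its brightest probe set. Of Anapc16 (-0.13), named after its values were seen, a dimmer probe set was 2.08-fold higher (52.1 and 108.3), and the other measured ones gave 0.12 and -0.36. The brightest genes of the list were Anapc5 (1672.8 and 1776.7, log2 ratio 0.09) and Anapc13 (769.3 and 761.7, -0.01). The list of cohesin, securin and separase had a median of -0.09 over 9 genes. Only the cohesion factor Cdca5 (213.7 and 96.3, -1.15, and -0.36 on its second probe set) and the securin gene Pttg1 (751.4 and 374.7, 2.01-fold lower, and -0.82 on its second) were 2-fold lower. The cohesin ring gene Rad21 was at -0.09. Condensin, which compacts chromosomes, had a median of -0.77 over 5 genes with none 2-fold lower. Smc2 was at -0.82, Ncapd2 at -0.78, Ncaph at -0.77, Smc4 at -0.46 and Ncaph2 at -0.25.

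Islet markers were bright on both arrays, with a summed signal over 12 genes of 44091.9 in wild type and 42308.1 in the knockout, most of it from hormone genes and Chga. Their median ratio was -0.17. The members furthest from 0 were Pcsk1 (919.8 and 332.6, log2 ratio -1.47), Slc2a2 (860.4 and 464.9, -0.89) and G6pc2 (-0.73), all of beta cell function. Other beta cell markers of the list were nearer 0. Nkx6-1 was at -0.58, Pdx1 at -0.34 and Neurod1 at -0.16 (0.17 on its second probe set). Iapp was at -0.13 (0.11 on its dimmest probe set) and Ins2 at 0.12. In whole islet preparations, fewer dividing cells of any type and less of the kinetochore transcripts per cell cannot be told apart. White blood cell markers were higher in the knockout. All 10 measured ones had a ratio above 0 (median 0.80), as did 4467 of all 8133 measured genes. For Csf1r, at 0.07, the other measured probe sets gave -0.01 and -0.08. A further 4 markers were above the floor in the knockout only, as were 424 of the 693 genes above it on 1 array only. The summed signal of all 16 white blood cell markers was 1372.1 in wild type and 3710.1 in the knockout. Most of this difference came from the neutrophil genes S100a8 (7.98-fold higher), S100a9 (6.44-fold), Ngp (4.82-fold) and Lcn2 (3.87-fold), grouped after their values were seen; the other 12 summed to 1016.8 and 1535.6. Itgam and Cd3e were under the floor on both arrays. Mesenchymal markers summed to 13287.1 and 12507.6 (median ratio -0.02 over 11 genes) and endothelial markers to 3902.2 and 3574.8 (-0.12 over 10). Acinar markers were bright as well, with sums of 38105 and 39932.5 (median ratio 0.07 over 10). The largest terms of the islet and acinar sums approached the array maxima, 8132.9 in wild type and 8242.2 in the knockout. Examples are Chga (7032.5 and 6229.1) and Cela3b (7279.4 and 7119.0). Whether signal still rises with RNA amount in that range was not tested. Near-equal sums therefore do not show equal cell content. Duct markers summed to 4879.8 and 5196.1 over 8 genes. Of the 7 measured duct markers, 4 had a ratio below 0 and 3 above, and only Tspan8 was 2-fold apart (2.13-fold higher). Red blood cell precursor markers summed to 499 and 528.4 over 6 genes. The part of these cell types in the kinetochore ratios was not tested.

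The ratios of single genes were recomputed under 9 other scalings, floors and probe set choices. For each of the 10 genes only 4 of these moved the value at all: median centring, quantile and loess normalisation and the pseudocount. The others left it as it was or gave none. Spc25 (-1.61 to -1.53) and Mad2l1 (-1.33 to -1.20) were at least 2-fold lower under those 4. Nuf2 (-1.43 to -1.12) and Incenp (-1.32 to -1.18) were so too. Ndc80, Mis12 and Cenpk were so under the scalings but not the pseudocount, with -0.83, -0.90 and -0.92 when a pseudocount of 16 replaced the floor. Dsn1 stayed between -0.46 and -0.27 and Pmf1 between 0.25 and 0.34.

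**Figure D5:**
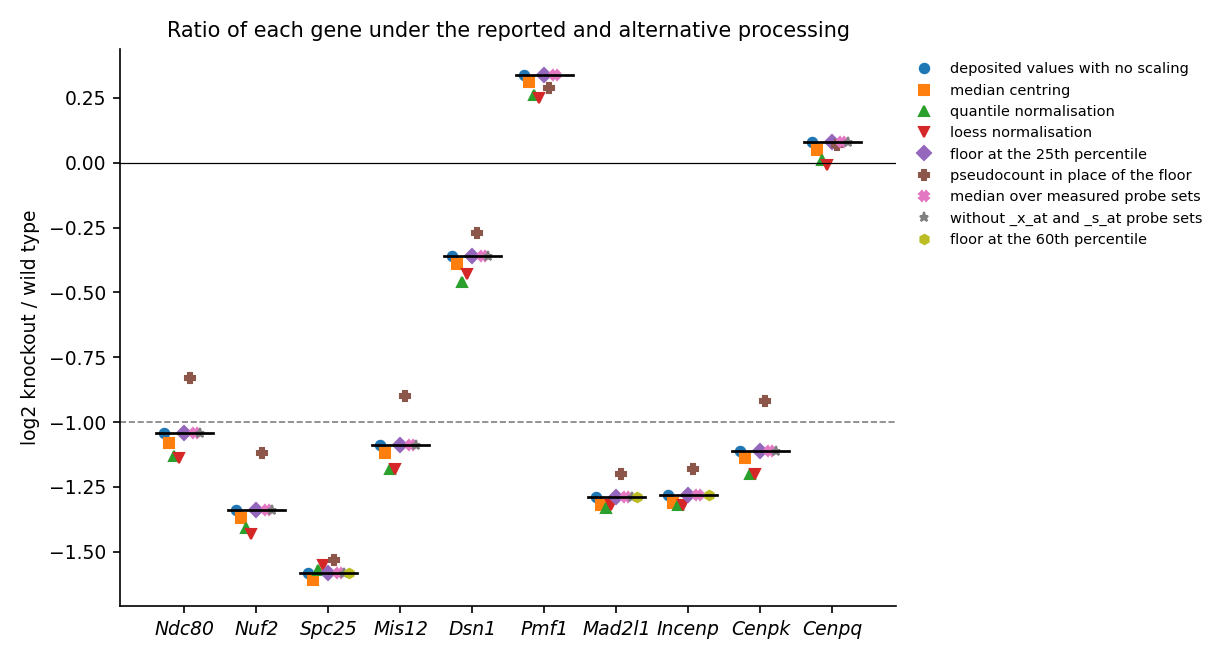
Log2 ratio of each of the 10 genes as reported (black bar) and under 9 alternative scalings, floors and probe set choices (symbols; a missing symbol means no value). Spc25, Nuf2, Mad2l1 and Incenp stay below the dashed 2-fold line, and Ndc80, Mis12 and Cenpk cross it with the pseudocount of 16.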

How the data were processed

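One array per genotype was analysed. The authors deposited a linear signal intensity for each of 22690 probe sets. GCOS 1.02 is the tool in the submitters' processing notes, and the sources used here name no background correction, summary method or detection calls. Both arrays had a 2% trimmed mean of 150.1 as deposited, and the knockout array was set to that of the wild type (factor 1.000). The 40th percentile of the joined arrays (39.8) served as a floor for dim signals before log2 ratios were taken. A gene above it on 1 array only has a bound ("at least N-fold").

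Gene names came from the platform annotation: 20380 probe sets had 1 symbol, 691 several and 1555 none, and 64 were controls. Only those with 1 symbol were used, and a gene was represented by its brightest probe set. No test was possible, so genes were counted by size (2-fold or 1.5-fold). The number of arrays limits the precision.

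The 10 genes and all lists were chosen with earlier results of these data known. Named genes are the 10, with all their probe sets, Eif2ak3, and every gene above the floor in lists of at most 9 genes. In longer or neighbouring lists they are those at least 1.5-fold apart and the 2 brightest. For cell markers the plan was to name at most 3 genes furthest from 0 in each list. Further islet, acinar and white blood cell markers are named outside that rule, such as Chga, Cela3b and Csf1r. Of 64 pathway genes, 16 had no probe set with their symbol alone and are not analysed here. Probe sets with several symbols were not searched for them. Ratios were checked on simulated data. The smallest planted changes were about as large as that of Spc25 and larger than those of the rest of the 10 genes. Only genes that stayed above the floor were scored. Changes of the size seen in the 10 genes other than Spc25 were therefore not checked. Python 3.11.15, pandas 2.3.3 and statsmodels 0.14.6 were used.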

Additional observations from a re-analysis of the deposited data

How the results depend on the processing

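No paired analysis was possible because each genotype has 1 array, and no replicate could be left out for the same reason. With the floor at the 60th percentile (a signal of 90.6), 3 of the 10 genes were measured (Spc25, Mad2l1 and Incenp) and all 3 were at least 2-fold lower. With a pseudocount of 16 in place of the floor, 4 of 10 were 2-fold lower in place of 7. Of all measured genes, 53 were at least 2-fold lower as reported, 80 with the floor at the 25th percentile, 28 with it at the 60th and 35 with the pseudocount. At 1.5-fold, 240 of all measured genes were lower, 7 of the 10 genes still, and 10 in place of 4 of the other pathway genes. Without _x_at and _s_at probe sets Pmf1 had no ratio and Incenp a bound, and the median of the Mis12 complex moved from -0.36 to -0.72 because it then held 2 genes. The counts for the other pathway genes and for genes measured were added after the data were seen. Genes near the floor are limited by their signal, above all Ndc80, Dsn1, Trip13 and the BUB kinases.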
